A study of Mus musculus with 2 samples.

Results

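Axon guidance genes were followed in neural precursor cells that had received extra HMGN1, a chromatin protein that binds nucleosomes. The genes are the ephrins and their Eph receptors, the semaphorins with the plexins and neuropilins that receive them, and the Slits with their Robo receptors. Members were the genes whose symbol placed them in one of these families and whose probe set carried that symbol alone in the platform annotation. This gave 59 genes, 31 ligands and 28 receptors, of 19938 genes in the table, measured by 63 probe sets.

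The cells came from the forebrain of Jcl:ICR mouse embryos at stage E11.5. One culture was infected with a control retrovirus and the other with an HMGN1 retrovirus, both in medium with FGF2 and EGF, the growth factors that keep precursors dividing. Replating followed 3 days after infection, and in both groups total RNA was taken after 1 further day without FGF2 and EGF. Each virus has 1 array, so there is 1 value per gene and group, no test between the groups can be made, and every difference below describes these 2 RNA samples. The labels name neither the promoter of the virus nor the share of infected cells, and do not say how many embryos gave the cells.

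Guidance molecules steer growing axons and migrating cells. Ephrins sit on the cell surface and activate Eph receptors, a large family of receptor tyrosine kinases, on neighbouring cells, while the ephrin-bearing cell can receive a signal in return. Semaphorins are secreted or membrane-bound and act through plexins, with neuropilins as the ligand-binding partner for most secreted ones, and Slits are secreted proteins that repel axons through Robo receptors. Many of these genes are also used by dividing precursor cells of the embryonic forebrain, where they take part in tissue boundaries, migration and the upkeep of the germinal zone.

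The deposited values are array intensities in arbitrary units. They were compared as log2(intensity + 16), HMGN1 virus minus control virus, a scale that understates changes of dim genes. A gene counted as detected when its mean over both arrays was at or above the 95th percentile of the 1035 probe sets for olfactory receptors, genes of the nose taken here as background, or an intensity of 85.9. Where 1 gene had separate probe sets (667 genes), their differences scattered with an SD of 0.0916, and this is the measure of scatter used here. Genes within it are called level below. It leaves out whatever varies between cultures or RNA preparations. The median intensity was 101 on the control virus array and 98.8 on the HMGN1 virus array, and Hmgn1 itself stood at 230 and 348, a log2 difference of 0.57. All 12 listed markers of neural precursors, among them Sox2, Pax6 and Nes, were detected. Of the other markers, 0 of 10 endothelial and 3 of 10 microglial genes reached the floor, as did 6 of 11 mesenchymal ones, Cspg4 of oligodendrocyte progenitors among them, and 0 of the 3 erythroid genes analysed.

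Of the 59 guidance genes, 46 were detected, and they differed little between the arrays. The HMGN1 virus array was brighter for 28 of them (against 60.1% of all 11325 detected genes) and dimmer for 18 (against 38.4%). No detected member reached a log2 difference of 0.32 in either direction, a size passed upwards by 0.494% and downwards by 0.521% of detected genes, or 1.5-fold, passed by 0% and 0.0706%. At a smaller log2 size of 0.20, chosen after seeing the data, 9 members were higher and 1 was lower, against 4.22% and 2.71% of detected genes. The 9 became 5 with centring, with the intensity trend removed or with the span trend removed, and 6 with quantile normalization or an offset of 64. The 9 were Sema5a, Robo2, Epha7, Sema3a, Sema6d, Efna3, Epha4, Plxna4 and Ephb3, and the lower gene was Ephb4. The size of 0.20 is itself more than 2 times the scatter between probe sets, so these 10 genes exceed that by selection. Of the 46 members, 27 lay within the scatter, compared with 60.5% of all detected genes.

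Ligands and receptors gave nearly the same picture. The median log2 difference was 0.025 over 24 detected ligands and 0.035 over 22 detected receptors, beside 0.027 over all detected genes. The gap between the medians was -0.0096 for ligands minus receptors. The scatter between probe sets describes single probe sets and gives no spread for such a gap. The ligand median turned to -0.0018 with the arrays centred on the median of detected genes, to -0.0098 with the intensity trend removed and to -0.021 with the trend along gene span removed, and the receptor median turned to -0.019 under the last of these only. Of the ligands 14 were higher and 10 lower, and of the receptors 14 were higher and 8 lower. The spread among genes was also alike, with an SD of 0.130 for ligands and 0.135 for receptors, against 0.111 for all detected genes.

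**Figure D1:**
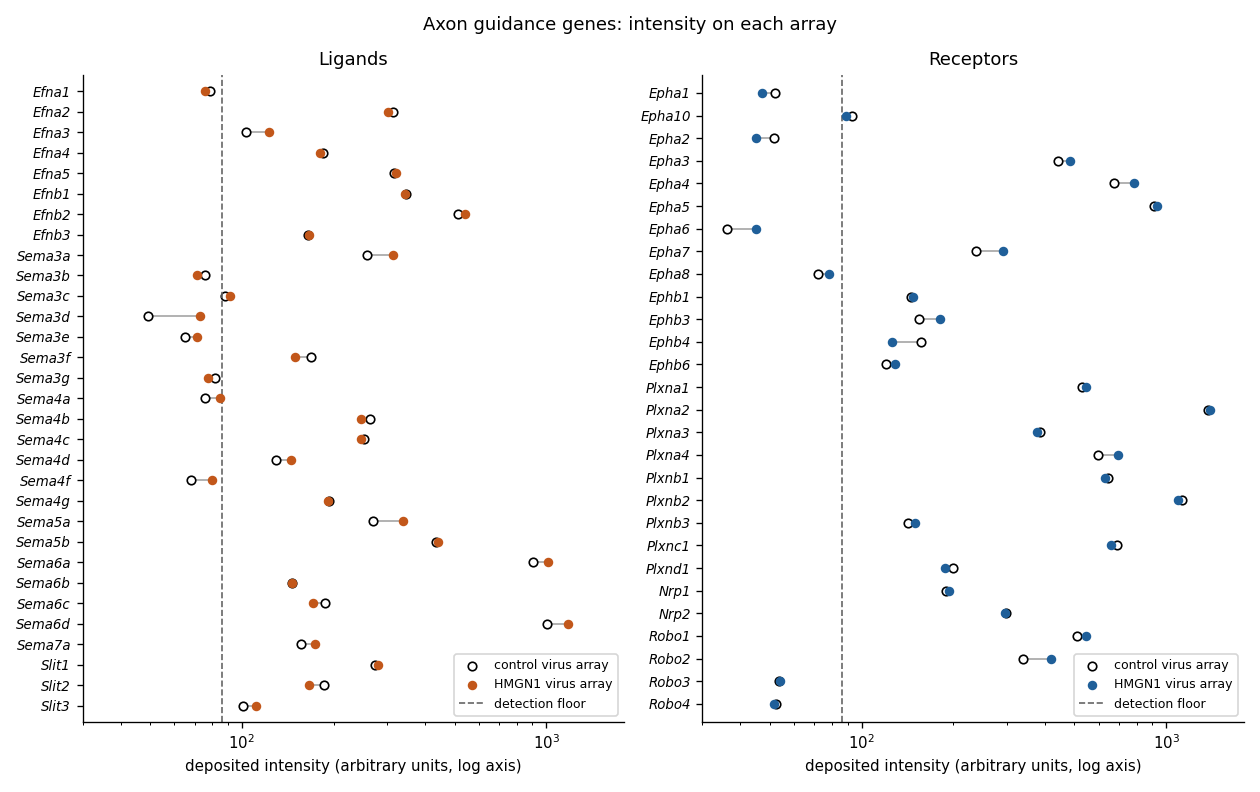
Deposited intensity (arbitrary units, log axis) of all 59 guidance genes on the control virus array (open circles) and the HMGN1 virus array (filled circles), ligands on the left and receptors on the right, with 1 array per virus. The dashed line is the detection floor of 85.9; 13 genes lie under it, and for most genes the paired circles nearly touch.

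The promoters of the genes at the ends of both orders are shown to give these genes their genomic setting. They are the highest and lowest detected ligand and receptor with an entry in the promoter table (Sema3f, slightly under Slit2, has none). Each window runs from 250 bases before to 50 bases after an annotated start, as RefSeq gives it on GRCm38.p6. Sema5a lies at chr15:32244563-32244862 on the plus strand, Slit2 at chr5:47982905-47983204 on the plus strand, Robo2 at chr16:75447244-75447543 on the minus strand and Ephb4 at chr5:137349859-137350158 on the plus strand. The Slit2 window belongs to a start 1864 bases from the outer end of the annotated gene. Capitals mark the GC box, GGGCGG or its other strand CCGCCC, which is the sequence bound by Sp1.
Sema5a: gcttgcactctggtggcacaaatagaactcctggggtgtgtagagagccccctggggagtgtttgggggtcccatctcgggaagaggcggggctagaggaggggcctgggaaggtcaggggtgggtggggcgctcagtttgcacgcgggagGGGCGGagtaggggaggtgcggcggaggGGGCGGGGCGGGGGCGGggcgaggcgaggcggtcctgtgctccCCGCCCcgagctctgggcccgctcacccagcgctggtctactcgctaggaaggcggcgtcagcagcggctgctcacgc
Slit2: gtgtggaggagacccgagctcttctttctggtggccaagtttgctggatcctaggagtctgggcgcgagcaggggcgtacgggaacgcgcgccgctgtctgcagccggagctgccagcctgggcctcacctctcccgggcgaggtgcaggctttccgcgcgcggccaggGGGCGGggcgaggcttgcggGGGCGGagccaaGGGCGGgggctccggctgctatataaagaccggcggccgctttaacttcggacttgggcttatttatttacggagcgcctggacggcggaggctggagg
Robo2: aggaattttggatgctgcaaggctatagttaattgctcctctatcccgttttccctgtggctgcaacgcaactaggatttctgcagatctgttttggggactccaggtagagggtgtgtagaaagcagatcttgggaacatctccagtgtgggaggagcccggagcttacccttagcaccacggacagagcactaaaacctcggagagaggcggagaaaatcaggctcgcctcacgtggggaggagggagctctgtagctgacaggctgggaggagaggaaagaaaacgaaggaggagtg
Ephb4: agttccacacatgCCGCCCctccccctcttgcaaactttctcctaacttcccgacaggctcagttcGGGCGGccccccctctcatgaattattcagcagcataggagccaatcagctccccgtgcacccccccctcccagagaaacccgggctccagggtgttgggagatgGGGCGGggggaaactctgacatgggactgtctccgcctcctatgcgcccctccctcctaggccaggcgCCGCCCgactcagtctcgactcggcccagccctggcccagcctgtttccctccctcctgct

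The windows differed in base composition, with 71.3% G and C in Sema5a, 68% in Slit2, 64.7% in Ephb4 and 53.3% in Robo2. The Sema5a window held 23 CpG dinucleotides and 5 GC boxes, some of which overlap, the Slit2 window 30 and 3, the Ephb4 window 14 and 4, and the Robo2 window 9 and 0. Motifs were counted on both strands in the 40 detected members with a promoter entry and in the 8885 detected protein-coding genes with one. A GC box stood in 30 of the 40 members (75%), compared with 66.6% of those genes. The TATA box TATAAA was found in 2 of the 40 (5%), Slit2 and Efnb2, compared with 6.78%. The E-box CANNTG, the core recognised by proneural bHLH factors, stood in 18 of the 40 (45%), compared with 62%. The RBPJ motif TGGGAA, of the Notch pathway, stood in 10 (25%), compared with 22.4%, and the NFI half-site TTGGCA in 2 (5%), compared with 11.2%. Detected ligands and receptors had a GC box equally often, in 15 of 20 genes each. These are matches of letters in a short window, and binding of HMGN1 or of any factor was not measured.

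Among ephrins, 6 of 7 detected genes stayed within the scatter between probe sets, compared with 60.5% of all detected genes. The exception was Efna3, a membrane-anchored ephrin-A, at 103 on the control virus array and 123 on the HMGN1 virus array, a log2 difference of 0.22. Its chromosomal neighbours Efna4 (185 and 181, -0.027) and Efna1, which was under the floor at 78.7 and 75.9, lie beside it on chromosome 3. Of these neighbouring genes only Efna3 exceeded the scatter, while Efna4 was level and Efna1, under the floor, is given no direction. Efna2, which with Efna5 guides the topographic map of retinal axons in the midbrain, stood at 314 and 301 (-0.058). Efna5 stood at 315 and 322 (0.028). The transmembrane ephrins, which can signal back into their own cell, were close to level: Efnb1 at 346 and 345 (-0.0061), Efnb2 at 512 and 542 (0.079) and Efnb3 at 165 and 167 (0.017).

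Of the 9 detected Eph receptors, 7 were brighter with the HMGN1 virus (77.8%, against 60.1% of all detected genes). Of the 9, 4 were level, compared with 60.5% of all detected genes. The detected Eph receptors had a median gene span of 148 kb, longer than that of the detected ephrins. Of detected protein-coding genes spanning at least 100 kb, 72.1% were higher, and of shorter ones 59.2%. The detected Eph receptors fell on both sides of that line, and the part of gene span in their count was not tested. The median difference of the Eph receptors was 0.079, positive under each alternative run and 0.055 with the span trend removed. For the ephrins it was 0.017, turning to -0.010 with centring, -0.011 with the intensity trend removed and -0.020 with the span trend removed. Whether receptors and ligands differ was not tested. The largest value among the EphA receptors was that of Epha7, a receptor of ephrin-A5 in the embryonic cortex, at 237 and 291 (0.27). Epha4, which binds ephrins of both the A and the B class, followed at 673 and 787 (0.22), and Epha3 at 441 and 485 (0.13). Epha5, a receptor of ephrin-A5 in forebrain axons, was nearly level at 909 and 936 (0.040). Epha10, which lacks an active kinase, was barely above the floor at 93.0 and 89.0 (-0.054), with its second, dimmer probe set at -0.15. Epha1, Epha2, Epha6 and Epha8 were under the floor, with intensities between 36.2 (Epha6, control virus) and 77.9 (Epha8, HMGN1 virus). The EphA median of 0.13 kept its sign under each alternative run.

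The EphB receptors held both a higher and a lower gene past a log2 difference of 0.20. Ephb4, the receptor of ephrin-B2 best known from the embryonic veins, had the lowest value of any detected member, at 157 and 126 (-0.29). It ranked lower than all but 0.742% of detected genes. Ephb3 went the other way, at 155 and 181 (0.20). Ephb6, a receptor without kinase activity, stood at 121 and 128 (0.079), and Ephb1, which sends retinal axons to the same side of the brain, at 145 and 148 (0.023). A second, dim probe set of Ephb1 gave 0.12. All 10 listed endothelial markers were under the floor, where values cannot be told from background. Their intensities summed to 573.9 and 541.7, and they ranged from Cdh5 at 61.9 and 45.1 (-0.35) to Esam at 59.8 and 67.9 (0.15). A link between these markers and the Ephb4 value was not tested.

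**Figure D2:**
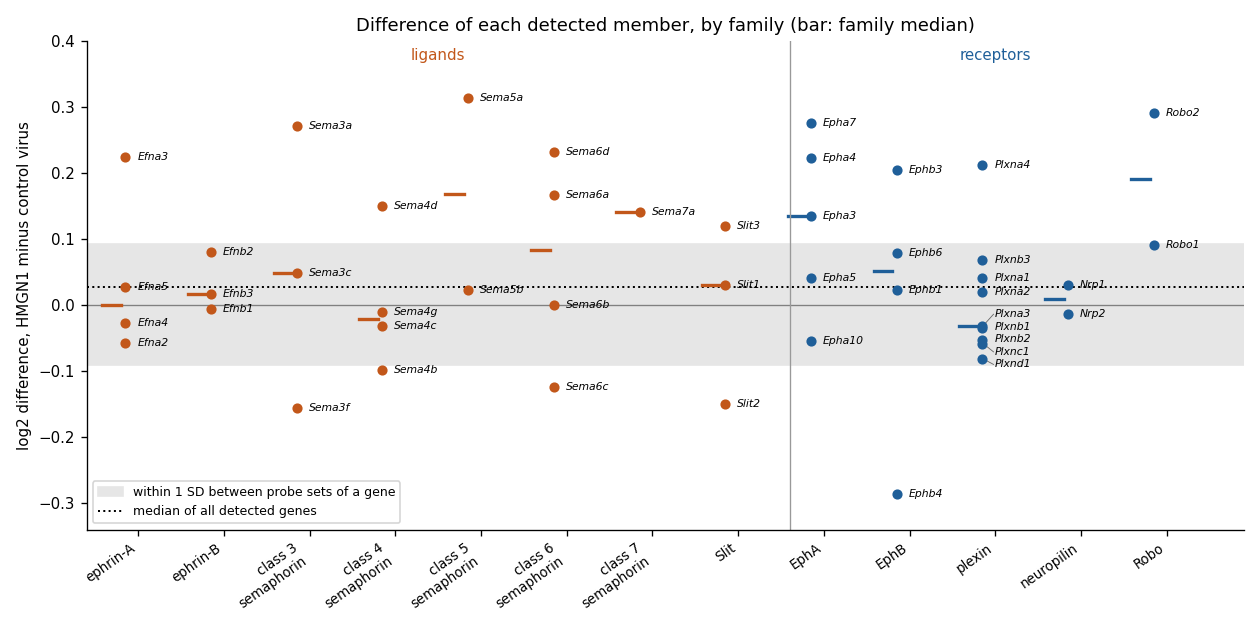
Log2 difference (HMGN1 virus minus control virus) of each of the 46 detected members by family, ligands in orange and receptors in blue, with 1 point per gene and a short bar at the family median. The grey band is 1 SD between probe sets of a gene (0.0916) and the dotted line the median of all detected genes (0.027); plexins and neuropilins cluster in the band, while Sema5a (0.31), Robo2 (0.29) and Ephb4 (-0.29) lie farthest from 0. Medians of several families change sign with the scaling.

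Semaphorins went both ways, and 5 of 14 detected genes were level, compared with 60.5% of all detected genes. Sema5a, a transmembrane semaphorin with thrombospondin repeats, was the highest member of all, at 269 and 338, a log2 difference of 0.31. With an offset of 1 in place of 16 it gave 0.33, and Sema5a alone among the detected members then passed 0.32. Its class 5 relative Sema5b was nearly level at 434 and 441 (0.023). Only one of the class 5 genes thus stood clear of the scatter.

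The secreted class 3 semaphorins act mostly through neuropilins. Sema3a, the classical repellent that binds Nrp1, stood at 258 and 314 (0.27). Sema3f, which binds Nrp2, was the lowest ligand at 169 and 150 (-0.16), and Sema3c, just over the floor, stood at 88.2 and 91.8 (0.049). Their receptors were both level, with Nrp1 at 190 and 194 (0.030) and Nrp2 at 298 and 295 (-0.013). The remaining class 3 genes, Sema3b, Sema3d, Sema3e and Sema3g, were under the floor, where values cannot be told from background.

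Class 6 semaphorins are membrane proteins that bind plexin-A receptors. Sema6d, a ligand of plexin-A1, stood at 1004 and 1181 (0.23). Sema6a, a ligand of plexin-A2 and plexin-A4, stood at 901 and 1014 (0.17). Both were brighter with the HMGN1 virus by more than the scatter. Sema6c was dimmer, at 188 and 171 (-0.12), and Sema6b was level at 146 and 146, its 2 probe sets listing identical values. The median of the class was 0.083, which kept its sign under each alternative run.

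Class 4 semaphorins, mostly ligands of plexin-B receptors, leaned the other way on the median (-0.021, but 0.064 with no filter on dim probe sets). Sema4d, the ligand of plexin-B1, was the one brighter gene at 129 and 145 (0.15), and its second probe set gave 0.14. Sema4b stood at 264 and 246 (-0.098), Sema4c, a ligand of plexin-B2, at 252 and 246 (-0.033) and Sema4g at 193 and 192 (-0.010). Sema4a and Sema4f were under the floor. Sema7a, a GPI-anchored semaphorin that binds plexin-C1 and integrins, stood at 157 and 174 (0.14).

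Plexins and neuropilins were mostly level. Of 11 detected genes, 10 lay within the scatter between probe sets, compared with 60.5% of detected genes. The exception was Plxna4, a partner of neuropilins in the response to Sema3a, at 598 and 695 (0.21). The other plexin-A genes were level, with Plxna1 at 528 and 544 (0.041), Plxna2 at 1373 and 1392 (0.020) and Plxna3 at 385 and 376 (-0.031). Among the plexin-B genes Plxnb1 stood at 645 and 629 (-0.036), Plxnb2, a receptor used by forebrain precursors, at 1132 and 1090.4 (-0.053), and Plxnb3 at 142 and 150 (0.068). Plxnc1, the receptor of Sema7a, stood at 688 and 660 (-0.059) and Plxnd1, the receptor of Sema3e, at 200.1 and 188 (-0.082). The plexin median was -0.031 and kept its sign under each alternative run.

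Slits and Robos did not share a direction. Slit2, a midline repellent, was dimmer with the HMGN1 virus at 186 and 166 (-0.15), whereas Slit3 was brighter at 101 and 111 (0.12) and Slit1 was level at 274 and 280.3 (0.030). Their receptor Robo2 was the highest receptor of all, at 339 and 418 (0.29), higher than 99.2% of detected genes. Robo1 stood at 511 and 545 (0.091), at the edge of the scatter. Robo3, which controls midline crossing, and Robo4, a vascular member, were under the floor at 53.4 and 54.0 and at 52.4 and 51.8. The Slit median of 0.030 changed sign under 4 alternatives, down to -0.060 with the detection floor raised to the 99th percentile of its reference probe sets.

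Ligands can be set beside receptors named with them above, as a choice of pairs made after their values were seen. In some pairs the differences were close: Efna5 at 0.028 and Epha5 at 0.040, Sema6a at 0.17 and Plxna4 at 0.21, and Sema4c at -0.033 and Plxnb2 at -0.053. Efna5 with Epha5, and Sema4c with Plxnb2, were pairs of level genes, and 60.5% of all detected genes were level. In other pairs the differences were not close. Sema6a at 0.17 stood beside its other receptor named above, Plxna2, at 0.020. Sema3a at 0.27 stood beside Plxna4 at 0.21 but Nrp1 at 0.030, and Sema6d at 0.23 beside Plxna1 at 0.041. Sema4d at 0.15 stood beside Plxnb1 at -0.036, and Sema3f at -0.16 beside Nrp2 at -0.013. Slit2 at -0.15 stood beside Robo2 at 0.29 and Robo1 at 0.091. Efnb2 at 0.079 stood beside Ephb4 at -0.29 and Epha4, which also binds ephrins of the B class, at 0.22. Efna5 at 0.028 stood beside Epha7 at 0.27, and Sema7a at 0.14 beside Plxnc1 at -0.059. Secreted ligands (6 detected) had a median of 0.039, which turned to -0.014 with the span trend removed, and membrane-bound ligands (18 detected) one of 0.020, which turned to -0.0073 with centring, -0.013 with the intensity trend removed and -0.021 with the span trend removed.

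Of the 28 guidance genes that were brighter with the HMGN1 virus, 20 were long genes. Gene span is the distance from the annotated start to the end, introns included, and 100 kb was chosen as a dividing line after the values were seen. Of 23 detected members spanning at least 100 kb, 20 were higher (against 72.1% of 1650 detected protein-coding genes of that span) and 3 were lower (26.8%), with a median of 0.091 beside 0.056 for those genes. Of 23 members under 100 kb, 8 were higher (against 59.2% of 9232 genes) and 15 lower (39.3%), with a median of -0.027 beside 0.024. The same split was seen within ligands and within receptors: 10 of 11 long ligands and 10 of 12 long receptors were higher, compared with 4 of 13 short ligands and 4 of 10 short receptors. Members just inside the line were Sema4d (108 kb, 0.15) and Nrp2 (115 kb, -0.013), and the longest member outside it was Plxna1 (46.3 kb, 0.041).

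Across genes, the differences correlated with gene span with a Spearman rank coefficient of 0.46 over the 46 detected members and 0.23 over 10882 detected protein-coding genes. These points share the same pair of arrays and are not independent replicates. Of the 9 members higher by at least 0.20, 7 spanned at least 100 kb, among them Robo2 (1555 kb), Sema6d (578 kb) and Sema3a (479 kb), and that size was reached by 6.73% of detected protein-coding genes of at least 100 kb and by 3.81% of shorter ones. Efna3 (9.04 kb) and Ephb3 (18.7 kb) were the short exceptions, and Slit2 (326 kb), Plxnc1 (154 kb) and Nrp2 were the long genes that were lower. The 1 member lower by that size was Ephb4 (24.4 kb), a size reached by 2.24% of the shorter genes and 1.09% of the longer ones. With the span trend of all genes removed, the median of long members went from 0.091 to 0.027 and that of short ones from -0.027 to -0.030, and 5 members were higher and 2 lower by at least 0.20.

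**Figure D3:**
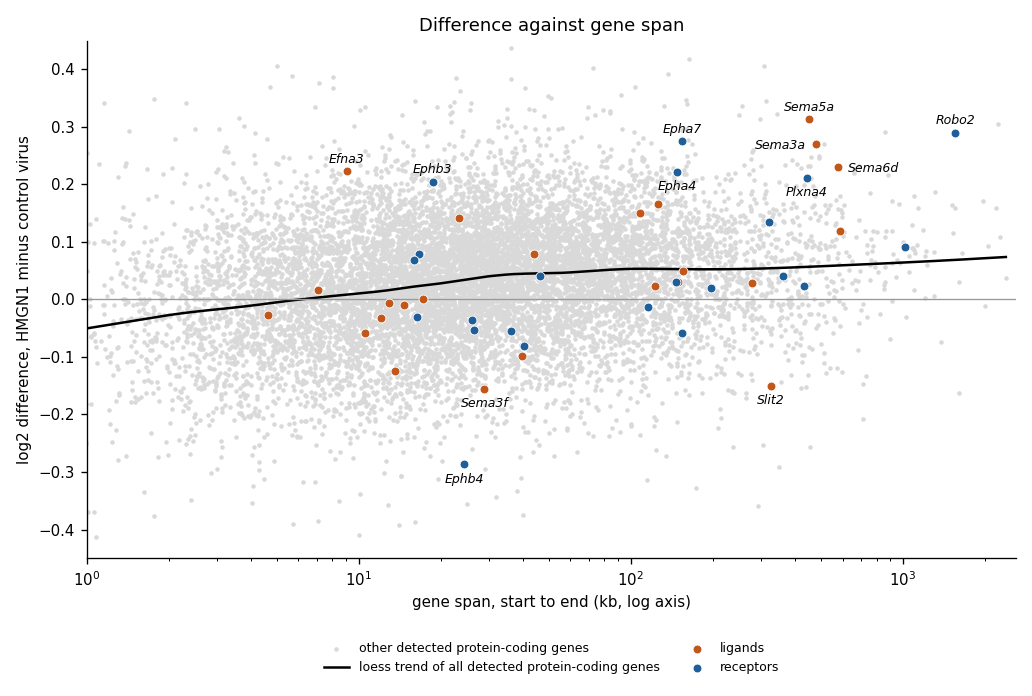
Log2 difference (HMGN1 virus minus control virus) of the detected ligands (orange) and receptors (blue) against gene span (kb, log axis), over the other detected protein-coding genes (grey) and their loess trend (black), with 1 point per gene; genes beyond the axis limits are not drawn. Most members right of 100 kb lie above 0 (20 of 23), and most members left of it lie below (15 of 23).

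The rest of the guidance pathway was read from lists whose members were chosen by function. Netrins, their receptors, repulsive guidance molecules and adhesion co-receptors gave 25 analysed genes, of which 23 were detected. Of these, 14 were higher (60.9%, against 60.1% of all detected genes) and 9 lower (39.1%, against 38.4%), with a median of 0.039 (-0.0081 with the span trend removed). Flrt1, an adhesion protein of the FLRT family, was highest at 123 and 150.1 (0.26). It was followed by the netrin receptor Unc5c at 209 and 248 (0.23) and by Nfasc, an adhesion molecule of the L1 family, at 301 and 336 (0.15). Lowest were Ntn3, a netrin, at 117 and 98.5 (-0.22), the netrin receptor Unc5d at 136 and 124 (-0.12) and Ntn1, the classical attractant netrin, at 187 and 173 (-0.11). Dcc, the receptor through which Ntn1 attracts axons, was level at 1884 and 1907 (0.017).

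Genes that carry guidance signals inside the growth cone gave 43 detected of 47 analysed. Of these, 32 were higher (74.4%, against 60.1% of all detected genes) and 11 lower (25.6%, against 38.4%). Among detected protein-coding genes of at least 100 kb, 72.1% were higher and 26.8% lower, and among shorter ones 59.2% and 39.3%. The detected genes of this list had a median span of 118 kb and fell on both sides of 100 kb. The part of gene span in their shares was not tested. The median difference of the list was 0.029 (-0.0047 with the intensity trend removed and -0.00061 with the span trend removed), beside 0.027 for all detected genes. Vav3, an exchange factor that activates small GTPases downstream of Eph receptors, was highest at 188 and 239 (0.32), and it just reached the larger log2 size used above. Next came the exchange factor Arhgef12, which acts downstream of plexin-B receptors, at 329 and 371 (0.17) and the Rac inhibitor Chn2 at 741 and 821 (0.14). Lowest were the actin regulator Vasp at 175 and 157 (-0.14), the plexin-associated Farp1 at 534 and 487 (-0.13) and the kinase Src at 390 and 366 (-0.084). The collapsin response mediators, which act downstream of Sema3a, were level, from Dpysl4 at -0.045 to Dpysl3 at 0.019.

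Markers of differentiating cells went both ways on these arrays, and their counts are to be set beside the 60.1% of all detected genes that were higher and the 38.4% that were lower. Of 14 neuron genes 13 were detected, 9 higher and 4 lower, with a median of 0.083. Their summed intensities were 9947 on the control virus array and 10338 on the HMGN1 virus array. Of the oligodendrocyte lineage genes all 11 analysed were detected, 8 higher and 3 lower, with sums of 6855 and 7239.7. Their median was 0.28, beside 0.027 for all detected genes, with a range from Olig2 at -0.16 to Enpp6 at 0.46. Of the astrocyte genes 9 of 10 were detected, 8 higher and 1 lower, with sums of 6387 and 6977. Their median was 0.16, with a range from Aldoc at -0.072 to Gfap at 0.58. Neuronal commitment genes leaned the other way, with 4 of 9 detected genes higher and 5 lower, a median of -0.11 and sums of 5564 and 5285. Neural precursor genes summed to 26667 and 26542, with 5 higher and 7 lower and a median of -0.016. In bulk RNA, fewer cells of a type and less RNA per cell cannot be told apart, and the part of such shifts in the guidance gene values was not tested.

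**Figure D4:**
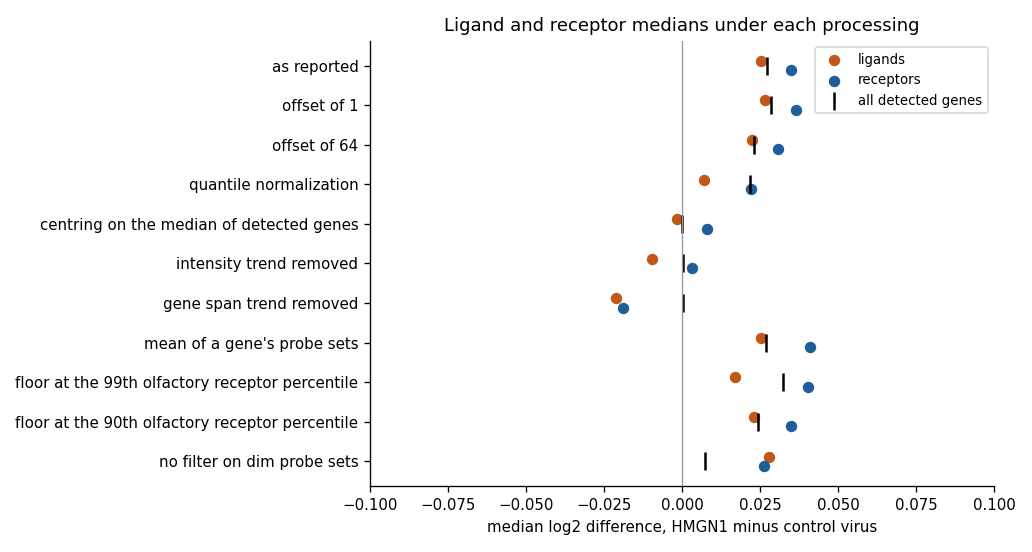
Median log2 difference (HMGN1 virus minus control virus) of the detected ligands (orange), receptors (blue) and all detected genes (black ticks) under the reported processing and each of 10 alternatives. Ligand medians run from -0.021 to 0.028 and receptor medians from -0.019 to 0.041, so their sign depends on the scaling. The scatter of 0.0916 between probe sets describes single probe sets and gives no spread for a median.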

How the data were processed

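Total RNA of 2 cultures, 1 per virus, was amplified and biotin-labelled (GeneChip WT kit) and hybridised to 1-colour arrays, per the labels' protocols. The authors deposited, for each array, a linear intensity for 28944 probe sets. Background correction, normalization and summarisation are not given in the sources used here, and no further normalization was applied. Gene symbols came from GEO's platform annotation (21789 probe sets with 1 symbol, 1621 with several, 5534 unnamed here), and all 59 members matched RefSeq of GRCm38.p6 by gene number, which supplied chromosome and span. A gene was represented by the probe set with the highest mean log2 value. The number of arrays limits the precision. With 1 array per group no model could be fitted, so no p-value is given. Members and lists were chosen with earlier results of these data known.

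The naming rule gave every detected member its intensities, and named the 3 highest and 3 lowest detected genes of the other lists. Genes named outside it, such as Dcc, Cdh5 and Esam, were chosen after their values were seen. Some genes of the lists are not reported here. Alternatives were offsets of 1 and 64, quantile normalization, centring, removal of trends with intensity or gene span by loess (span 0.3), averaging over probe sets and other floors (90th and 99th percentile, or none). Added after seeing the data were the smaller log2 size of 0.20, the 100 kb line for the counts at a fixed size the trends, floors and probe set means, and every alternative for the medians of ephrins, Eph receptors, secreted and membrane ligands and all members together. Code was tested on simulated arrays. Calculations used Python 3.11.15, numpy 2.4.6, pandas 2.3.3, scipy 1.17.1 and statsmodels 0.14.6.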

Additional observations from a re-analysis of the deposited data

Results flagged for a closer look

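Sema3d, a secreted semaphorin, gave a signal outside the counted genes because its probe set lay under the detection floor. Its intensity was 49.1 on the control virus array and 73.1 on the HMGN1 virus array, a log2 difference of 0.453, larger than that of any detected member. Among 8613 genes under the floor, 14 had a difference at least as high, Sema3d itself included. So did 2 of 1027 olfactory receptor genes, whose differences had an SD of 0.156. The difference has no replicate check.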

How the results depend on the processing

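No paired analysis was possible because there is only 1 array per virus, and leaving out a replicate was likewise not possible. The count of detected members higher by a log2 difference of 0.32 or more, 0 as reported, was 1 with an offset of 1 (Sema5a) and 1 with no filter on dim probe sets (Sema3d), and at a log2 size of 0.20 the counts were 9 higher and 1 lower. The 9 became 5 with centring or with either trend removed, 6 with quantile normalization or an offset of 64 and 11 with no filter, and the 1 became 2 with the span trend removed. The Robo median of 0.19 became 0.052 with no filter on dim probe sets, which by construction adds Robo3 and Robo4. The median of secreted ligands, 0.039 as reported, became -0.060 with the floor at the 99th percentile, where fewer genes entered. The other 258 of 264 alternative values of counts and medians stayed within 1.5 times the count or within the scatter between probe sets. That scatter, 0.0916, is larger than most of the medians, so medians that changed sign also counted as staying within it. The ephrin-A median, for example, turned from 0.00040 to -0.033 with the intensity trend removed. Higher members numbered 19 to 35 and lower members 17 to 27 over the alternatives, with 19 higher and 27 lower once the span trend was removed. Of 321 alternative values of single members, all from the same 2 arrays, 0 moved by more than the scatter. Of the 46 members, 10 changed sign at least once, all with reported values between 0 and 0.049. With shifts this small a member past 0.20 could not change sign, and 0 of those 10 did. Of the members past 0.20, Sema5a ran from 0.26 to 0.33, Robo2 from 0.22 to 0.30 and Ephb4 from -0.32 to -0.22. Genes close to the floor of 85.9 are limited by low signal, since the offset compresses their differences.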
